A study of Mus musculus with 6 samples.

Results

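*Reg4*, *Reg3b* and *Reg3g* are the 3 genes of the Reg (regenerating islet-derived) family that were abundant in mouse colonic crypts, and they were picked by symbol from a table of 18049 genes with earlier results of these libraries in view. The choice used the difference between GSK503-treated and control mice, so their values in that contrast are a description and carry no test. All 3 passed the filter on low values. The samples were crypts from the colons of 3 control and 3 treated mice of a Lynch syndrome model, with 1 library of total RNA per sample, and each sample is called a mouse here.

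Every mouse in both groups carried the same alleles. *Villin-Cre* drove the deletion of a floxed gene in the intestinal epithelium, and a humanized knockin brought a poly(A) repeat into *TgfβRII*. From 8 weeks of age the mice ate a Western-style diet with 20% fat, so no group was free of the deletion, the knockin or the diet. Treated mice received GSK503, an inhibitor of the histone methyltransferase EZH2, at 200 μg/kg in the tail vein 2 times a week during a 9-week trial, and control mice received the vehicle, 20% captisol in PBS.

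Reg proteins are small secreted C-type lectins. *Reg3b* and *Reg3g* are made by enterocytes and Paneth cells and are released into the mucus, where they bind and kill bacteria. Their transcription follows the microbiota through MYD88 and through IL-22, a lymphocyte cytokine that acts on epithelial cells by way of STAT3. *Reg4* is better known as a marker of the deep crypt secretory cells of the mouse colon, the cells that sit between the stem cells as Paneth cells do in the small intestine.

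The genes lie in separate places in the GRCm39 genome. *Reg4* (ENSMUSG00000027876) is on the plus strand at chr3:98129468-98144066. *Reg3b* (ENSMUSG00000071356) is on the plus strand at chr6:78347640-78350455 and *Reg3g* (ENSMUSG00000030017) on the minus strand at chr6:78443246-78445859. They are the outermost genes of a cluster that also holds *Reg3d*, *Reg3a*, *Reg2* and *Reg1*. The canonical transcripts were 1027 bases long for *Reg4*, 789 for *Reg3b* and 778 for *Reg3g*, each of 6 exons. No stretch of 76 bases, the read length, was identical between a canonical Reg transcript and a transcript of any other gene, and those of *Reg3b* and *Reg3g* were identical at 68.5% of aligned positions.

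The 150 bases before the RefSeq start site of each gene are printed because *Reg3b* and *Reg3g* moved together between mice and *Reg4* did not follow them. They were taken from RefSeq's promoter sequences of GRCm38.p6 and placed in GRCm39 by exact match, at chr6:78347718-78347867 on the plus strand for *Reg3b*, chr6:78445858-78446007 on the minus strand for *Reg3g* and chr3:98129322-98129471 on the plus strand for *Reg4*. Capitals mark TATAAA in *Reg3b* and *Reg3g*, the STAT-type motif TTCNNNGAA in *Reg3b*, and GATAAG in *Reg4*. Only exact letters were searched, so the near match tataag towards the end of the *Reg4* window is not marked.
Reg3b: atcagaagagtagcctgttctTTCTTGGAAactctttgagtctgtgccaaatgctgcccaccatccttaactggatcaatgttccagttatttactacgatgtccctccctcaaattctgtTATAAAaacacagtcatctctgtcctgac
Reg3g: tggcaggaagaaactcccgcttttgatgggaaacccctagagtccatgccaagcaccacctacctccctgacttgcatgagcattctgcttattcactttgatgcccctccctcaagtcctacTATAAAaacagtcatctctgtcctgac
Reg4: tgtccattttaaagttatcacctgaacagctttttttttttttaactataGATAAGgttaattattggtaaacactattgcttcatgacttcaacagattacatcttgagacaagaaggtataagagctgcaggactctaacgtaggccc

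The windows of *Reg3b* and *Reg3g* were identical at 69.5% of 154 aligned positions, with a longest shared run of 20 bases. The other pairs among the 7 Reg genes of the mouse reached between 40.2% and 61.1%, and *Reg4* matched *Reg3b* at 45.7% and *Reg3g* at 47.5%. The *Reg3b* window lies wholly inside the annotated span of *Reg3b*, which begins at chr6:78347640. In that window 24 bases lie in annotated *Reg3b* exons. The windows of *Reg3g* and *Reg4* hold 2 and 4 bases of exons of their own genes. TATAAA ended 24 bases before the start site of *Reg3b* and 22 bases before that of *Reg3g*. It is not particular to this pair, as it also ended 25 bases before the start sites of *Reg1* and *Reg2*. In all, 4 of the 7 Reg windows held it, beside 7.57% of 32851 windows of the same length, on either strand. TTCNNNGAA was in 4.09% of those windows and GATAAG in 3.75%. CAGCTG, an E-box, was in 8.39% of them and in none of the Reg windows. These are matches of letters in a short window, and no binding was measured here.

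Depth was similar between groups, with estimated totals of 108163301 to 129101058 counts in controls and 124492130 to 135085535 counts in treated mice. Values are TMM-scaled estimated counts relative to library size (CPM), and 3 counts would give 0.0228 to 0.0271, a floor that covers counting error only. The epithelial markers *Krt8*, *Epcam* and *Cldn7* summed to 6736 to 7748 in control and 7254 to 8512 in treated mice. *Xist* was at 825 or above in all treated and at 0.936 or below in all control mice, and Y-linked *Uty* was at 1.08 or below in treated and 42.5 or above in control mice, so sex and treatment cannot be told apart for any gene here. Of 16670 genes tested with limma, 107 (0.642%) had an adjusted p below 0.05, with 83 (0.498%) higher and 24 (0.144%) lower in treated mice. An unadjusted p below 0.05 was reached by 2223 of the 16670, and the 2 groups did not overlap for 19.1% of genes.

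*Reg4* was far higher in the crypts of treated mice. It stood at 142, 92.0 and 89.1 CPM in control mice 1, 2 and 3 and at 869.6, 1049.5 and 939 CPM in treated mice 1, 2 and 3. No control reached the level of a treated mouse, and the lowest treated value was 6.12 times the highest control value. Means were 108 ± 29.8 and 953 ± 90.7 CPM (SD, n = 3), a ratio of 8.84 and a log2FC of 3.17 with a standard error (SE) of 0.16. The groups of 9.84% of all tested genes stood apart in this direction, and for *Reg4* this separation was part of its choice. In bulk RNA, more cells of a type and more RNA per cell cannot be told apart.

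The treated mice were also closer to each other than the controls. The coefficient of variation (SD over mean) of *Reg4* was 27.6% in control and 9.52% in treated mice, and the highest value was 1.59 times the lowest in control and 1.21 times in treated mice. Ranked among all genes of its library, *Reg4* went from places 1270, 2212 and 2354 in control mice to places 89, 68 and 73 in treated mice. These values rest on 10174 to 18670 estimated counts in control and 102592 to 131754 in treated libraries, so counting error is small beside the spread between mice. Leaving out each mouse in turn gave log2FC values between 3.05 and 3.39.

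*Reg3b* had the highest mean of the 3 genes in both groups and the widest spread. It stood at 453, 3415 and 2158 CPM in control mice 1, 2 and 3 and at 712, 1189 and 1388 CPM in treated mice 1, 2 and 3. All 3 treated mice fell between the lowest and the highest control, so the groups overlapped completely, whereas 9.22% of all tested genes were lower without overlap. Means were 2009 ± 1487 CPM in control and 1096 ± 347 CPM in treated mice (SD, n = 3), with a log2FC of -0.50 and an SE of 0.61 that exceeds it. The sign of this difference rested on single mice. Without control mouse 2 the log2FC was 0.09 and without control mouse 1 it was -1.36, while the other 4 omissions gave -0.70 to -0.22.

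The span within the control group was 7.55-fold for *Reg3b*, against 1.95-fold in treated mice. In control mouse 2 it was in place 15 among all genes of the library and took 0.349% of all counts, and in control mouse 1 it was in place 248 with 0.0461%. Among the 2032 genes with a mean of at least 100 CPM, 99.9% had a smaller SD of log2 values in control mice than *Reg3b*. The same share was 99.2% in treated mice. Each library held at least 59468 estimated counts of *Reg3b*, so counting error is small beside this spread.

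*Reg3g* ran in parallel with *Reg3b*. It stood at 104, 600.0 and 411 CPM in control mice 1, 2 and 3 and at 132, 198 and 198 CPM in treated mice 1, 2 and 3. The 3 treated mice again lay inside the range of the controls, above control mouse 1 and below control mice 2 and 3. Means were 372 ± 250 and 176 ± 38.2 CPM (SD, n = 3), with a log2FC of -0.77 and an SE of 0.52. It was -1.52 without control mouse 1, -0.26 without control mouse 2 and -0.87 to -0.53 without any other single mouse. The span was 5.75-fold in control and 1.51-fold in treated mice, and 99.8% of genes at this level had a smaller spread in control mice and 97.9% in treated mice.

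**Figure D1:**
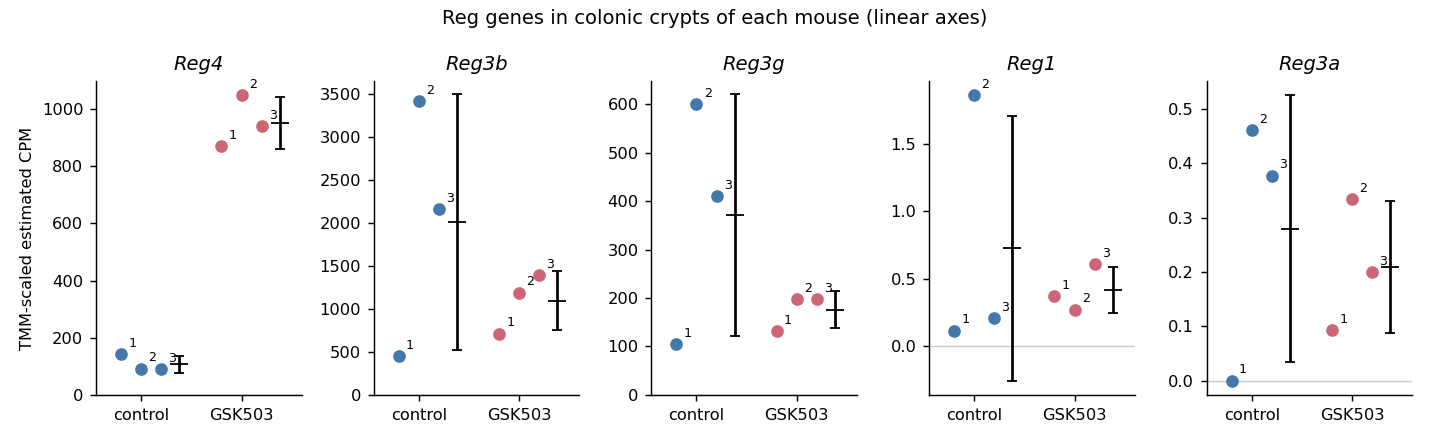
Value of each Reg gene in the table in every mouse, in TMM-scaled estimated CPM on linear axes that differ between panels, with control mice in blue, GSK503-treated mice in red, replicate numbers beside the points and bars for the mean ± SD (n = 3). *Reg4* separates the groups (142 or below against 869.6 or above), whereas the treated mice lie inside the range of the controls for *Reg3b* and *Reg3g*.

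The ratio of *Reg3b* to *Reg3g* spanned less than either gene. Controls 1, 2 and 3 had ratios of 4.34, 5.69 and 5.25 and treated mice 1, 2 and 3 had ratios of 5.41, 5.99 and 7.03, or 5.09 ± 0.689 and 6.14 ± 0.821 on average (SD, n = 3). The ranges overlapped between groups. Over the 6 mice the log2 values of the pair had a Pearson correlation of 0.978, given as a description of 6 libraries that share groups and normalization. *Reg4* had correlations of -0.367 with *Reg3b* and -0.539 with *Reg3g*. Among control mice, mouse 1 held the highest *Reg4* and the lowest *Reg3b* and *Reg3g*.

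Transcript length allows the members to be ranked against each other. In CPM per kilobase of canonical transcript, the control means were 2546 for *Reg3b*, 478 for *Reg3g* and 105 for *Reg4*, and the treated means were 1389.7 for *Reg3b*, 928 for *Reg4* and 226 for *Reg3g*. In control mice the per-kilobase range of *Reg3g* (134 to 771) overlapped those of *Reg3b* (574 to 4329) and *Reg4* (86.8 to 138). Within each control mouse *Reg3b* was still 4.28 to 5.61 times *Reg3g*, and *Reg3g* and *Reg4* changed order in control mouse 1 (134 against 138). In treated mice *Reg3g* (169 to 255) was below both others, and *Reg3b* (903 to 1759) overlapped *Reg4* (847 to 1022) over mice but was above it within each mouse.

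The makeup of the Reg pool differed between the groups while its summed level overlapped. Per kilobase, *Reg3b* exceeded *Reg4* by 4.15, 48.3 and 31.5 times in control mice 1, 2 and 3 and by 1.07, 1.47 and 1.92 times in treated mice 1, 2 and 3. These ratios did not overlap, which follows in large part from the values that chose the members. The summed level of the 3 genes was 699, 4107 and 2658 CPM in control and 1714, 2437 and 2525 CPM in treated mice, with all treated mice inside the control range. Together they made up 0.0711% to 0.420% of counts in control and 0.161% to 0.244% in treated libraries.

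**Figure D2:**
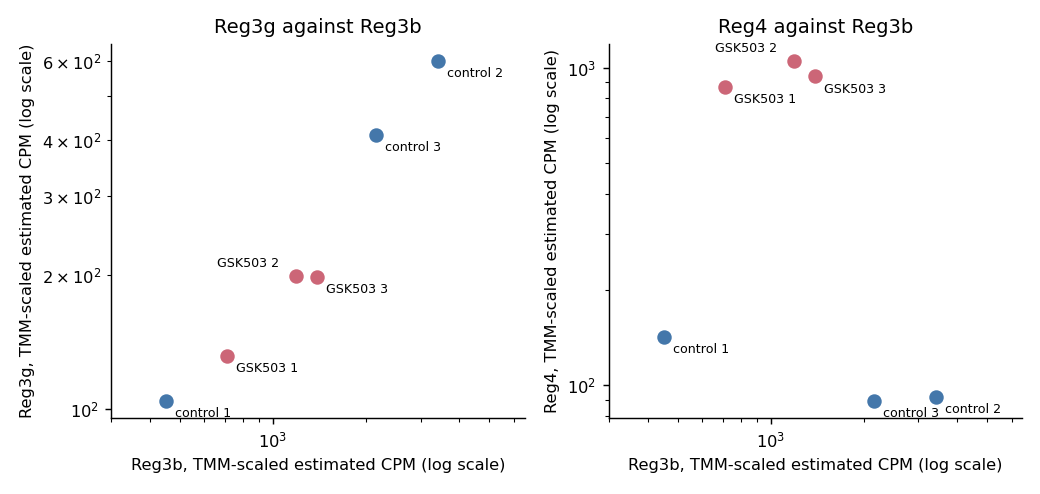
*Reg3g* (left) and *Reg4* (right) against *Reg3b* in each of the 6 mice, in TMM-scaled estimated CPM on log axes, with control mice in blue and GSK503-treated mice in red. The points of *Reg3g* follow those of *Reg3b* in both groups, with a ratio of *Reg3b* to *Reg3g* between 4.34 and 7.03, and the treated mice lie above the controls for *Reg4* at middle levels of *Reg3b*.

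**Figure D3:**
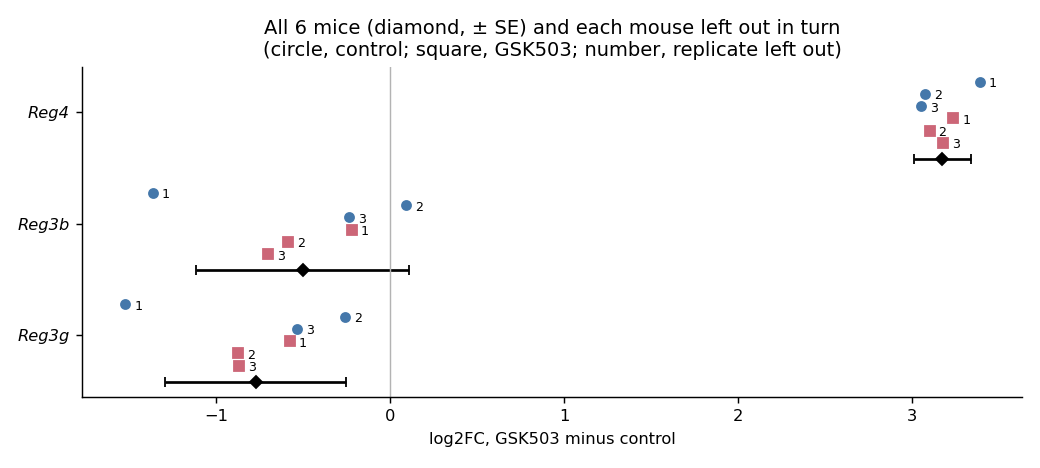
The log2FC (GSK503 minus control) of each member with all 6 mice (diamond, bar for ± SE) and with 1 mouse left out (circles for a control, squares for a treated mouse, numbered by replicate). *Reg4* stays between 3.05 and 3.39, *Reg3b* runs from -1.36 to 0.09 and *Reg3g* from -1.52 to -0.26, with control mice 1 and 2 at the ends for *Reg3b* and *Reg3g*.

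*Reg1* and *Reg3a*, which lie between *Reg3b* and *Reg3g* in the chromosome 6 cluster, were below 2 CPM in every mouse, with 0 to 206 estimated counts a library. *Reg1* (ENSMUSG00000059654, chr6:78399694-78405828) stood at 0.114, 1.86 and 0.205 CPM in control and 0.373, 0.271 and 0.607 CPM in treated mice. *Reg3a* (ENSMUSG00000079516, chr6:78357692-78360810) stood at 0, 0.461 and 0.378 CPM in control and 0.0932, 0.335 and 0.200 CPM in treated mice. The groups overlapped for both, and neither passed the test, with a log2FC of -0.02 (SE 0.75, adjusted p = 0.996) for *Reg1* and -0.03 (SE 0.69, adjusted p = 0.990) for *Reg3a*. *Reg2* and *Reg3d* were not analysed here.

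The highest *Reg1* value, in control mouse 2, came with pancreatic genes. *Reg1* is known as a product of pancreatic acinar cells, and 8 acinar markers (*Prss2*, *Cpa1* and others, without *Cela1* and *Ctrl*) summed to 0.102, 73.3 and 0.228 CPM in control and 0.161, 0.0717 and 8.35 CPM in treated mice 1, 2 and 3. Control mouse 2 and then treated mouse 3 were highest for both *Reg1* and this sum, and 7 of the 8 markers were at 0 in control mouse 1. The part of these cells in the *Reg1* or *Reg3b* values was not tested, and without control mouse 2 the log2FC of *Reg1* was 0.97 (adjusted p = 0.476).

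The signalling route to the Reg3 genes was followed in 19 genes of IL-22 and IL-17 signalling, of which 16 were tested. limma called 0 of the 16, beside 0.642% of all tested genes, and limma-voom called 0. At that share a list of this size would seldom hold a call, so the 0 says little about the route. An unadjusted p below 0.05 was reached by 6 of the 16, beside 2223 of all 16670 tested genes. Without overlap between the groups, 2 were higher and 2 lower, beside 9.84% and 9.22% of all tested genes. The median log2FC of the 16 was -0.02, beside -0.01 over all tested genes, with 8 means higher and 8 lower. *Stat3*, the transcription factor that carries the IL-22 signal, was at 172 ± 25.3 CPM in control and 158 ± 8.88 CPM in treated mice (log2FC -0.11, adjusted p = 0.713), and *Jak1*, the kinase that acts on it, had a log2FC of 0.05 (adjusted p = 0.819). *Nfkbiz*, which encodes a nuclear cofactor of NF-κB in the IL-17 response, was at 120 ± 14.6 and 86.8 ± 6.97 CPM (log2FC -0.46, adjusted p = 0.0801). The receptor chain *Il17rc* was at 75.5 ± 6.47 and 100.4 ± 13.2 CPM (log2FC 0.41, adjusted p = 0.135). The cytokines *Il22*, *Il17a* and *Il17f* were not analysed here.

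IL-22 and IL-17 are known to induce other epithelial genes beside *Reg3b* and *Reg3g*. Of 14 listed, 13 were tested, 12 had a lower and 1 a higher mean log2 value in treated mice, and the median log2FC was -0.23. Of the 13, 1 was called lower, beside 0.144% of all tested genes. The groups did not overlap for 3, all lower in treated mice, beside 9.22% of all tested genes. The only call was *Lcn2*, which encodes the siderophore-binding lipocalin 2 and fell from 2.59 ± 0.190 to 0.640 ± 0.0866 CPM (log2FC -1.87, SE 0.26, adjusted p = 0.0157). The call of *Lcn2* was lost without any of control mice 1, 2 and 3 or treated mice 1 and 2, where the adjusted p lay between 0.0526 and 0.0928. *Dmbt1*, a mucosal scavenger protein far more abundant than the Reg genes, was at 18239 ± 3557 CPM in control and 11703 ± 155 CPM in treated mice, without overlap and without passing the test (log2FC -0.62, adjusted p = 0.330). *Duox2* (log2FC -0.20, adjusted p = 0.665), *Fut2* (-0.03, adjusted p = 0.952) and *Saa1* (0.25, adjusted p = 0.376) overlapped between the groups.

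Secreted antibacterial proteins outside the Reg family split in both directions. Of 14 listed, 12 were tested, with 3 called higher and 1 called lower, beside 0.498% and 0.144% of all tested genes, and a median log2FC of 0.09. *Retnlb*, a goblet cell product that kills Gram-negative bacteria, stood at 218, 125 and 116 CPM in control and 564, 586 and 484 CPM in treated mice (log2FC 1.88, SE 0.21, adjusted p = 0.00423). *Ang4*, an antibacterial ribonuclease, stood at 424, 59.2 and 118 CPM in control and 1098, 1592 and 1750.4 CPM in treated mice (log2FC 3.34, SE 0.56, adjusted p = 0.0345). *Itln1*, a lectin that binds microbial glycans, stood at 38.7, 7.62 and 9.01 CPM in control and 76.6, 129 and 129 CPM in treated mice (log2FC 2.95, SE 0.51, adjusted p = 0.0415). All 3 separated the groups as *Reg4* did, and all 3 were highest among controls in mouse 1, the control with the highest *Reg4* and the lowest *Reg3b*.

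*Ltf*, the iron-binding lactoferrin, fell from 3.16 ± 0.458 to 1.07 ± 0.263 CPM (log2FC -1.49, adjusted p = 0.0474). The abundant *Lypd8* (log2FC 0.04, adjusted p = 0.932), *Zg16* (0.48, adjusted p = 0.0875), *Pglyrp1* (-0.07, adjusted p = 0.754) and *Wfdc2* (0.13, adjusted p = 0.844) did not pass. *Retnlb* kept its call without any single mouse. *Ang4* and *Itln1* lost theirs without control mouse 2 or 3 or any 1 treated mouse, at adjusted p values of 0.0622 to 0.175 for *Ang4* and 0.0609 to 0.198 for *Itln1*. *Ltf* lost its call without any 1 control mouse or without treated mouse 1 or 2, at 0.0939 to 0.213.

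Of 7 genes of deep crypt secretory cells, the cells that *Reg4* marks, 1 was called higher, beside 0.498% of all tested genes. The groups did not overlap for 3 of the 7, all higher in treated mice, beside 9.84% of all tested genes. *Spink4*, a secreted peptide of goblet and deep crypt secretory cells, rose from 782, 629 and 549 CPM in control to 1857, 1774 and 1614 CPM in treated mice (log2FC 1.43, SE 0.13, adjusted p = 0.00164). *Agr2*, which folds mucins, did not overlap but did not pass (log2FC 0.79, adjusted p = 0.0753). *Kit*, a receptor used to sort these cells, overlapped between the groups (log2FC 0.15, adjusted p = 0.711), as did *Cd44* (-0.30, adjusted p = 0.417). The Notch ligand *Dll4* was higher in treated mice without overlap and did not pass (log2FC 0.25, adjusted p = 0.496). The median over the 7 was 0.15, against 3.17 for *Reg4* itself, and *Spink4* kept its call without any single mouse.

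Of 12 transcription factors of the secretory lineage, 1 was called higher, beside 0.498% of all tested genes. The groups did not overlap for 5 of them, all higher in treated mice, beside 9.84% of all tested genes. Their median log2FC was 0.05, with 5 at an unadjusted p below 0.05 and 2 called by limma-voom. *Spdef*, which drives goblet cell maturation, rose from 78.3 ± 12.7 to 124 ± 11.3 CPM (log2FC 0.68, SE 0.12, adjusted p = 0.0459), a call lost without any mouse other than control mouse 2 (adjusted p of 0.0611 to 0.226). *Atoh1*, which sets the secretory fate, was at 81.9 ± 12.3 and 112.5 ± 11.6 CPM without overlap (log2FC 0.46, adjusted p = 0.123). *Klf4* (0.04, adjusted p = 0.918), *Cdx2* (-0.02, adjusted p = 0.936) and *Creb3l1* (0.05, adjusted p = 0.880) had log2FC values near 0. *Extl3* and *Egfr*, proposed receptors for Reg proteins, were at 37.7 ± 1.72 and 83.2 ± 3.03 CPM in control and 33.6 ± 2.03 and 75.0 ± 4.92 CPM in treated mice. Both were lower without overlap, beside 9.22% of all tested genes, and neither passed (log2FC -0.17 and -0.15, adjusted p = 0.442 for both). Of the 2, 0 had an unadjusted p below 0.05 and limma-voom called 0.

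**Figure D4:**
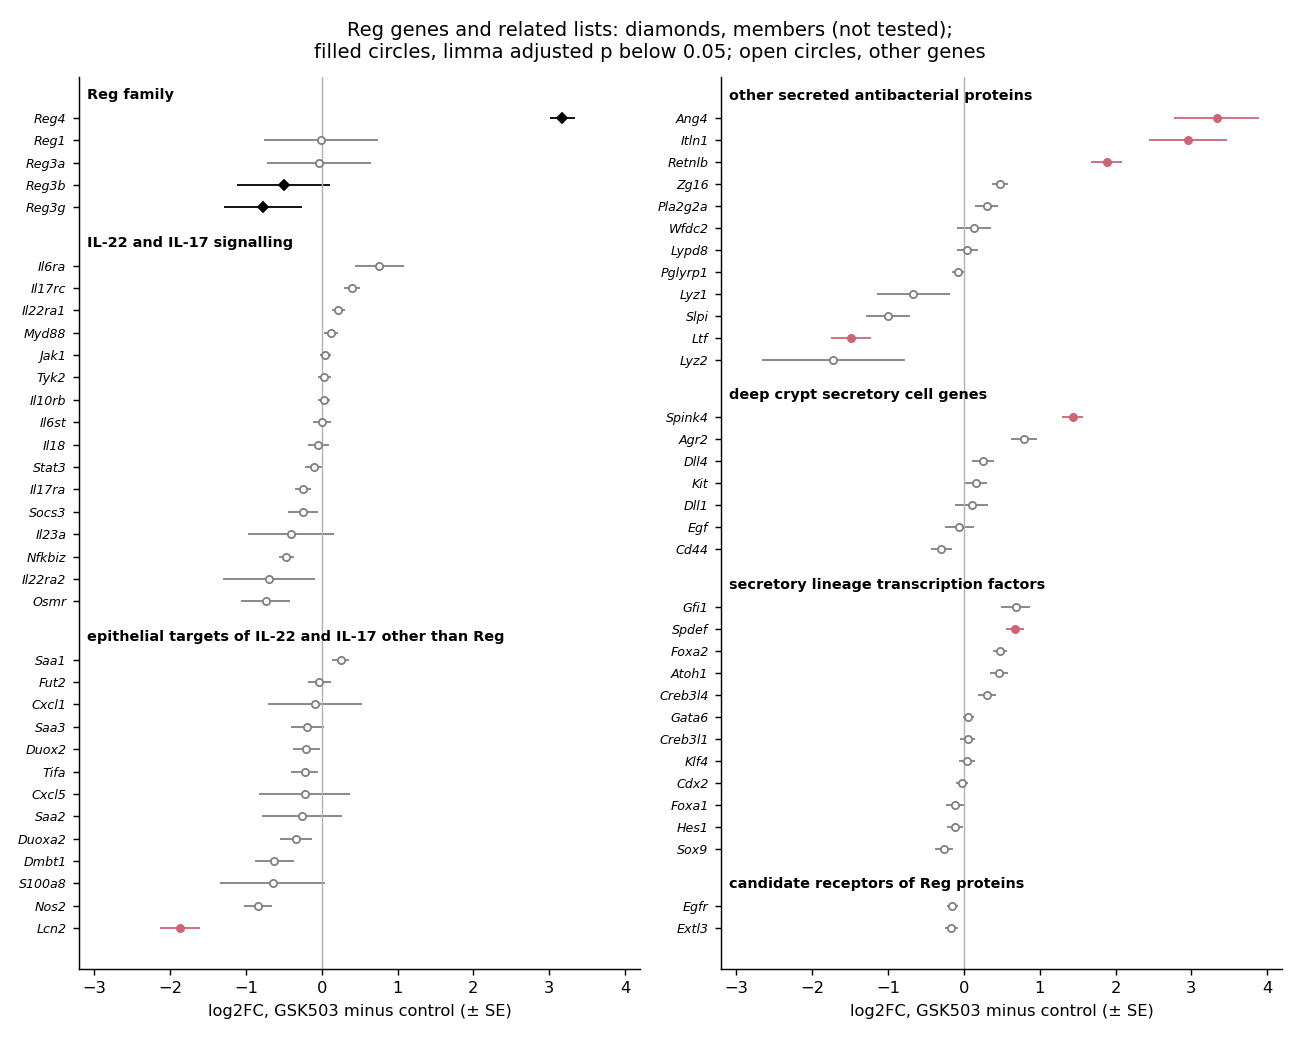
The log2FC (GSK503 minus control, on the log2(value + 0.1) scale, bars for ± SE) of the Reg genes and of every tested gene of the related lists. Black diamonds are the 3 chosen genes, filled red circles the 7 list genes with an adjusted p below 0.05 (*Ang4*, *Itln1*, *Retnlb*, *Spink4* and *Spdef* higher, *Lcn2* and *Ltf* lower) and open circles the others.

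Goblet cells also make *Reg4*. Of 9 goblet cell markers, 8 were higher in every treated than in any control mouse, beside 9.84% of all tested genes, and 4 were called higher, beside 0.498% (*Clca1*, log2FC 2.38, adjusted p = 0.0294; *Tff3*, 0.79, adjusted p = 0.0325; *Spdef* and *Spink4*), and the summed level was 10892 to 19238 CPM in control and 33364 to 51693 CPM in treated mice. The calls of *Clca1* and *Tff3* were lost without control mouse 2 or 3 or treated mouse 2, at adjusted p values of 0.0897 to 0.167 and 0.0670 to 0.167, and that of *Tff3* also without treated mouse 3 (0.0507). The median log2FC of the 9 markers was 0.79, below the 3.17 of *Reg4*. Control mouse 1 had the highest sum of the controls, as it had the highest *Reg4*. That sum was mostly *Fcgbp* and *Clca1* (8436 and 7984 of 19238 CPM). *Fcgbp*, *Clca1*, *Tff3*, *Agr2* and *Spink4* were highest among controls in mouse 1. *Zg16*, *Spdef*, *Sytl2* and the barely detected *St6galnac1* were highest in control mouse 2. The part of goblet cell number in the *Reg4* values was not tested.

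Enteroendocrine cells also make *Reg4* in the gut. Of 11 markers of these cells, with a median log2FC of -0.63, 3 were called lower in treated mice, beside 0.144% of all tested genes, the granule proteins *Chga* (log2FC -0.70, adjusted p = 0.0471) and *Chgb* (-0.85, adjusted p = 0.0215) and the hormone gene *Gcg* (-0.72, adjusted p = 0.0393), and the summed level was 207 to 257 CPM in control and 131 to 166 CPM in treated mice. *Chga* lost its call without any 1 mouse (adjusted p of 0.0537 to 0.138), *Chgb* without control mouse 1 or 2 or treated mouse 1 (0.0703 to 0.0853), and *Gcg* without any mouse but control mouse 1 (0.0570 to 0.113). Of 6 Paneth cell markers 4 were tested, and 3 had a higher and 1 a lower mean in treated mice. *Itln1* was the only call, beside 0.498% of all tested genes called higher. The defensin *Defa24* was at 0 in every control and at 0.466, 0.175 and 0.840 CPM in treated mice, which did not pass (adjusted p = 0.0875). The protease *Mmp7* overlapped between the groups (log2FC 0.56, adjusted p = 0.564), and so did *Lyz1* (-0.67, adjusted p = 0.591). *Defa17* and *Defa21* were at 0.797 CPM or below in every mouse.

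Markers of cells from outside the epithelium varied between libraries of the same group. Smooth muscle markers summed to 20.3, 80.4 and 43.0 CPM in control and 4.36, 4.07 and 110.2 CPM in treated mice, B cell markers to 30.8, 66.7 and 21.0 and to 3.36, 1.57 and 61.0 CPM, and macrophage markers to 14.1, 19.9 and 14.1 and to 8.26, 4.17 and 29.4 CPM. Control mouse 2 had the highest *Reg3b* and the highest value of each of these 3 sums among controls, whereas control mouse 3, with *Reg3b* at 2158 CPM, had a lower B cell sum than control mouse 1, with *Reg3b* at 453 CPM. Treated mouse 3 had the highest smooth muscle and macrophage sums and a *Reg4* level between those of the other treated mice. T cells and innate lymphoid cells can make IL-22. Their markers summed to 60.2 to 66.6 CPM in control and 37.9 to 57.2 CPM in treated mice without overlap. limma and limma-voom each called 0 of these 8 markers (1 at an unadjusted p below 0.05), beside 0.642% of all tested genes called by limma. The part of these cells in the *Reg3b* and *Reg3g* values was not tested.

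**Figure D5:**
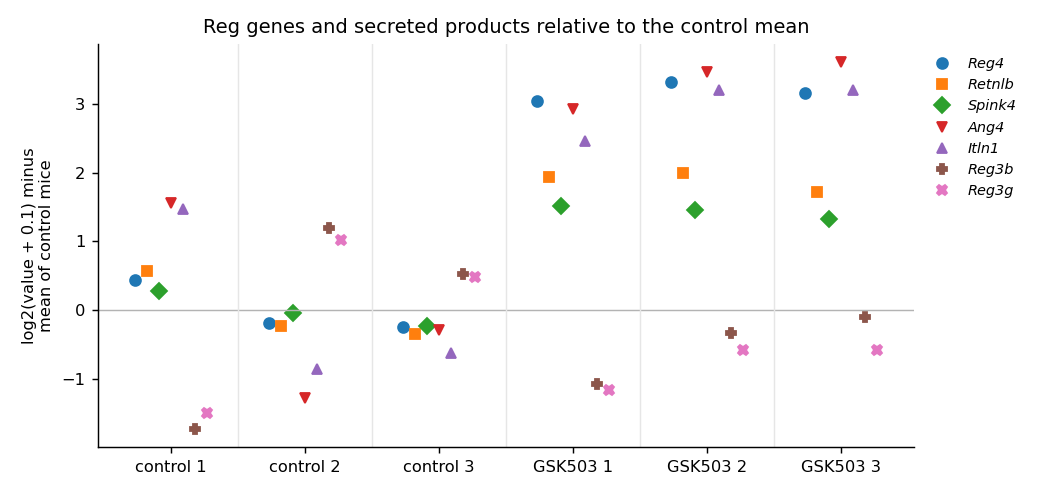
Each gene's log2(value + 0.1) in every mouse minus its mean over the 3 control mice, for the 3 chosen Reg genes and for the secreted products *Retnlb*, *Spink4*, *Ang4* and *Itln1*. In control mouse 1 the 4 products and *Reg4* lie above 0 and *Reg3b* and *Reg3g* below it, and in all treated mice the 4 products and *Reg4* lie above 1 while *Reg3b* and *Reg3g* lie below 0.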

How the data were processed

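Total RNA of crypts from the colon was sequenced as paired-end reads of 76 bases, from 3 mice per group. STAR alignment to GRCm39, RSEM estimates of gene counts and TMM scaling in edgeR were done by the authors, and the deposited signal of a gene is this TMM-scaled estimated CPM. Library sums ranged from 975566 to 1076042, and 77.9% to 80.7% of values below 40 were whole multiples (within 0.02 counts) of a common step, from which the totals and estimated counts were derived. RSEM estimates need not be whole.

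Scaled values do not suit a count test, so none was run on them. Groups and replicate numbers came from the sample titles. limma 3.58.1 in R 4.3.3 (lmFit, eBayes with an intensity trend) was fitted to log2(value + 0.1) for the 16670 genes whose value reached 0.1 in 3 or more mice (1379 others were not tested), with Benjamini-Hochberg adjustment and a call at an adjusted p below 0.05. A log2FC on this scale understates the change of low genes. The labels number the replicates and do not say that each is a separate animal, so p-values measure only the spread between these samples, which may be technical. Pairs of libraries had Pearson's r of 0.976 to 0.990 across genes and shared 0 identical values above 0.

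The 3 Reg genes, the gene lists and the tests were chosen with earlier results of these data known, so the 3 genes carry no p-value and the lists are described by counts and medians beside those of all tested genes. Named genes were all Reg genes and, of each other list, the called genes and up to 4 others with the highest means. Genes named beyond this (*Lyz1*, *Mmp7*, the defensins, *Prss2*, *Cpa1*, *St6galnac1*) are cell type markers. Alternatives, with limma-voom on the estimated counts among them, are given at the end. Symbols were matched to GENCODE (95.4% to a single gene). The fit was checked on simulated data. Motifs were searched on both strands. The name of the floxed gene and 1 neighbouring gene are not reported here. Other steps used Python 3.11.15 with Biopython 1.88, matplotlib 3.10.9, pandas 2.3.3 and numpy 2.4.6.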

Additional observations from a re-analysis of the deposited data

How the results depend on the processing

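Each group had 3 mice, sex and treatment cannot be told apart, and *Reg1* and *Reg3a* rest on 0 to 206 estimated counts a library. Across 15 alternatives (other pseudocounts, filters and scalings, no intensity trend, limma-voom on recovered counts, a replicate block and each mouse left out), *Reg4* had a log2FC of 3.05 to 3.39 without 1 mouse and 3.06 to 3.18 otherwise. Leaving out 1 mouse gave -1.36 to 0.09 for *Reg3b* and -1.52 to -0.26 for *Reg3g*, and the other alternatives gave -0.62 to -0.50 and -0.89 to -0.77. *Reg1* ranged from -0.63 to 0.97 and *Reg3a* from -0.82 to 0.42 without 1 mouse, and limma-voom gave 0.27 and 1.24, with adjusted p values of 0.476 or above for *Reg1* and 0.555 or above for *Reg3a*.

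The number of genes called depended on the fit. It was 83 higher and 24 lower, and 20 to 116 higher and 7 to 100 lower without 1 mouse. Without the intensity trend it was 9 and 7. Scaling by library size alone, which moves the median log2FC of all tested genes to -0.12, called 178 lower. Of the 62 related genes tested outside the Reg family, 5 were called higher and 2 lower, beside 0.498% and 0.144% of all tested genes. Without 1 mouse, 2 to 4 were called higher and 0 to 3 lower. Without the trend limma called 0 higher and 1 lower, and library size alone called 4 lower, no filter on low values 1 and limma-voom 1. *Retnlb* and *Spink4* kept their calls in 14 of 15 alternatives, and without the trend their adjusted p values were 0.171 and 0.0805. *Ang4* and *Itln1* were called in 8, *Lcn2* in 9 and *Ltf* and *Spdef* in 6. The causes of these changes were not tested.

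The labels do not say whether mice with the same replicate number were paired, and correlations between groups of 3 mice cannot settle it. Deviations from the group means of same-numbered mice had correlations of 0.0322, -0.126 and -0.119, and control mouse 2 was closest to treated mouse 3 (0.224). With the replicate block 23 genes were called higher and 10 lower, and among related genes 3 higher and 0 lower, with *Retnlb* and *Spink4* still called.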

Other observations

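The genes whose values over the 6 mice were most like those of *Reg4*, among 12794 tested genes with a mean of at least 1 CPM, were *Ern2* (Pearson's r 0.994), *Nptx1* (0.993), *Sprr2a3* (0.992), *Hid1* (0.992) and *Gadd45g* (0.992). *Ern2* encodes the stress sensor of the endoplasmic reticulum in mucus-secreting cells and stood at 114, 108 and 105 CPM in control and 137, 143 and 145 CPM in treated mice, a far smaller span than that of *Reg4*. *Nptx1*, a neuronal pentraxin, stood at 1.36, 1.09 and 0.850 CPM in control and 6.71, 11.6 and 9.21 CPM in treated mice. All 5 genes were higher in every treated than in any control mouse, beside 9.84% of all tested genes. They were picked for likeness to *Reg4*, which separates the groups, so this followed largely from the choice.

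For *Reg3b* the most similar genes were *Ifih1* (0.986), *Pex13* (0.981), *1700012D14Rik* (0.975), *Qtrt2* (0.974) and *Schip1* (0.971), and for *Reg3g* they were *Septin10* (0.986), *Ifih1* (0.985), *Tdp2* (0.984), *Prpsap2* (0.982) and *Pex13* (0.980). *Ifih1*, a sensor of viral RNA, stood at 124, 148 and 139 CPM in control and 127, 132 and 134 CPM in treated mice, so it followed the order of *Reg3b* in all 6 mice over a far smaller span. These are correlations of 6 libraries picked from many genes and carry no test.

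Within 500 kb of *Reg4*, a window set after its values were seen, 7 genes were tested. limma called 0 of the 7, beside 0.642% of all tested genes, and limma-voom called 0. An unadjusted p below 0.05 was reached by 3 of the 7, beside 2223 of all 16670 tested genes. *Notch2*, 71.8 kb before *Reg4*, had a log2FC of -0.40 (adjusted p = 0.103) and was lower in every treated than in any control mouse. Outside the Reg family, the only gene tested within this distance of *Reg3b* and *Reg3g* was *Ctnna2* (log2FC -0.66, adjusted p = 0.511).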
